A study of Mus musculus with 9 samples.

Results

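Cholesterol balance was examined through 29 genes in libraries labelled as sorted colonic CD4+ T cells. The genes encode enzymes of cholesterol synthesis, the factors that sense sterols and switch those enzymes on, and a sterol carrier. They also encode the nuclear receptors that sense excess sterol, and proteins of sterol uptake control and efflux. The genes were chosen by their symbols, which the table writes in capitals (HMGCS1, NR1H3 and ABCA1 for Hmgcs1, Nr1h3 and Abca1), and all 29 were found among the 23415 genes of the deposited expression table. All 29 passed the filter for testing, which asked for at least 1 TPM (a relative transcript level corrected for transcript length and scaled to the same total in every library) in at least 4 libraries. Uptake is represented here by Mylip alone, a ubiquitin ligase that removes lipoprotein receptors from the cell surface.

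The libraries came from T cell transfer colitis, in which naive T cells given to mice that lack T and B cells cause inflammation of the large intestine. In the knockout group (4 libraries), the transferred cells were naive CD4+ T cells (CD25-, CD45RBhigh) from CD160 knockout mice. The control group (5 libraries) received the same kind of cells from wildtype littermates. Recipients of both groups were Rag1-/-, and 5000 CD4+ T cells were sorted from each colon sample when disease peaked. CD160 is a receptor on the surface of lymphocytes. The labels do not say which part of Cd160 was deleted or whether each library came from its own recipient. The p-values therefore speak only of spread from library to library, which may be technical. Rag1-/- recipients keep their own macrophages and other non-lymphoid cells.

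Cells make cholesterol from acetyl-CoA through the mevalonate pathway, squalene and lanosterol. When sterols are scarce in the endoplasmic reticulum, the escort protein SCAP carries the SREBP transcription factors to the Golgi, where they are cut and released to activate the synthesis genes. When sterols are plentiful, INSIG proteins hold SCAP back. Oxidised sterols activate the LXR nuclear receptors, which switch on the exporters Abca1 and Abcg1 and the ligase Mylip. Activated T cells raise SREBP-driven synthesis when they divide, and LXR signalling restrains this supply, so the 2 arms are usually described as opposites. For a summary of each arm, 20 members were taken as SREBP targets (the 18 enzymes, Insig1 and Stard4) and 3 as LXR targets (Abca1, Abcg1 and Mylip).

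To show the kind of sequence that SREBP and LXR read near these genes, the 250 bases before the start site are printed for 4 members, 5′ to 3′ on the strand of the gene, from the RefSeq promoter table for GRCm38.p6. Hmgcs1 and Mvk stand for the SREBP targets, and Nr1h3 (shown for 1 of its 2 listed start sites) and Abca1 are the members with the largest differences between groups below. Capitals mark matches to the sterol element TCACNCCAC and to the CCAAT box of the factor NF-Y, which works beside SREBP, on either strand (CCAAT reads ATTGG on the other strand).
Hmgcs1, chr13:119690101-119690350, plus strand: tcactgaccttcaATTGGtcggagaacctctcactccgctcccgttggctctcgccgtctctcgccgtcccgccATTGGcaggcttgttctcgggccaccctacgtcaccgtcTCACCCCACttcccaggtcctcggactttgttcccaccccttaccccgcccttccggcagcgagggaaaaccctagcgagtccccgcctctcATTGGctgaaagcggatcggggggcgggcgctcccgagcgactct
Mvk, chr5:114444019-114444268, plus strand: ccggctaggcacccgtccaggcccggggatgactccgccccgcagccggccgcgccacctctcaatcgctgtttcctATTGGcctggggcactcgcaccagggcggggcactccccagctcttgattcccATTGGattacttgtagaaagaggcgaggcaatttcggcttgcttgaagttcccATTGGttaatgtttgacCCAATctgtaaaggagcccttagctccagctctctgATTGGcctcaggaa
Nr1h3, chr2:91195117-91195366, minus strand: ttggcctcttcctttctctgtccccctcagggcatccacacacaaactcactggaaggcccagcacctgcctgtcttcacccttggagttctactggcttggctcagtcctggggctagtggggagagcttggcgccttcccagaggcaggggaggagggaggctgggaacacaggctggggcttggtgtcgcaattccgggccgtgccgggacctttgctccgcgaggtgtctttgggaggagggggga
Abca1, chr4:53159896-53160145, minus strand: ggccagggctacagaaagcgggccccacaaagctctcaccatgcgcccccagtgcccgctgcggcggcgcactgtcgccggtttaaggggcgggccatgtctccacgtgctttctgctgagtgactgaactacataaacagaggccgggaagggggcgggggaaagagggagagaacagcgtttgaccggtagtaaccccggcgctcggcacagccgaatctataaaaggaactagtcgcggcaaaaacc
The upstream stretch of Hmgcs1 held 3 CCAAT boxes and 1 sterol element, TCACCCCAC, which began at position -137 from the start site. That of Mvk held 5 CCAAT boxes and no exact sterol element, and those of Nr1h3 and Abca1 held neither. RefSeq promoters of 300 bases (250 before to 50 after the start) were found for 24 of the 29 members, among them 16 of the 20 SREBP targets. A CCAAT box was present in a promoter of 15 of these 16 genes (93.8%), against 41.1% of the 27025 genes in the promoter table. The exact sterol element was present in 1 of the 16, against 1.44% of all genes. With at most 1 mismatch it was present in 8 of the 16 (50%), against 26.7% of all genes. The LXR element was searched as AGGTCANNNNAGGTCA and in a looser form, AGGTNANNNNNGGTCA, with no mismatch allowed. Neither form was found in the promoters of these 24 members (Abca1 and Mylip among the LXR targets), where 0.015% and 0.096% of all genes held them. The search therefore misses elements that differ from these forms. The printed stretch of Abca1 holds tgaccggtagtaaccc, which on the other strand differs from the looser form at 1 base and is not marked. These matches describe letters in the windows and are not evidence of binding.

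Before the results, 1 library needs to be named. In control replicate 1, 7308 genes reached 1 TPM, against 11088 to 11711 in the other 8 libraries. Every one of the 29 members was lowest in this library, as were 86.9% of all tested genes. The 29 members stood there at a median of 6.68% (range 1.27 to 29.1%) of the mean of the other 4 controls, and all tested genes at a median of 11.5%. Results are therefore given with and without it, and single genes are compared mainly with control replicates 2 to 5. Cd160 itself stood at 5.44 to 18.8 TPM in the knockout libraries and 31.8 to 212.4 TPM in all 5 control libraries. T cell markers (8 genes) were above 0 in all 9 libraries and summed to 3788 to 4930 TPM in the knockout libraries, 4659 to 5419 TPM in control replicates 2 to 5 and 1724 TPM in control replicate 1. Macrophage markers (12 genes) were also above 0 in all 9, and summed to 9765 to 17574 TPM in the knockout libraries, 2834 to 10908 TPM in control replicates 2 to 5 and 1106 TPM in control replicate 1. T cell markers were thus present in every library, but the libraries cannot be read as T cells alone. The macrophage sum exceeded the T cell sum in all 4 knockout libraries and in control replicates 2 and 4. In the other controls the macrophage sum was the lower one. The lists differ in length (8 and 12 genes), so these sums do not give shares of cells. The macrophage sum also leans on 1 gene, Lyz2, at 4638 to 8176 TPM in knockout libraries and 1324 to 5598 TPM in control replicates 2 to 5. In knockout replicate 1, Lyz2 alone gave 8176 of the 12063 TPM, above the T cell sum of 4171 TPM there.

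**Figure D1:**
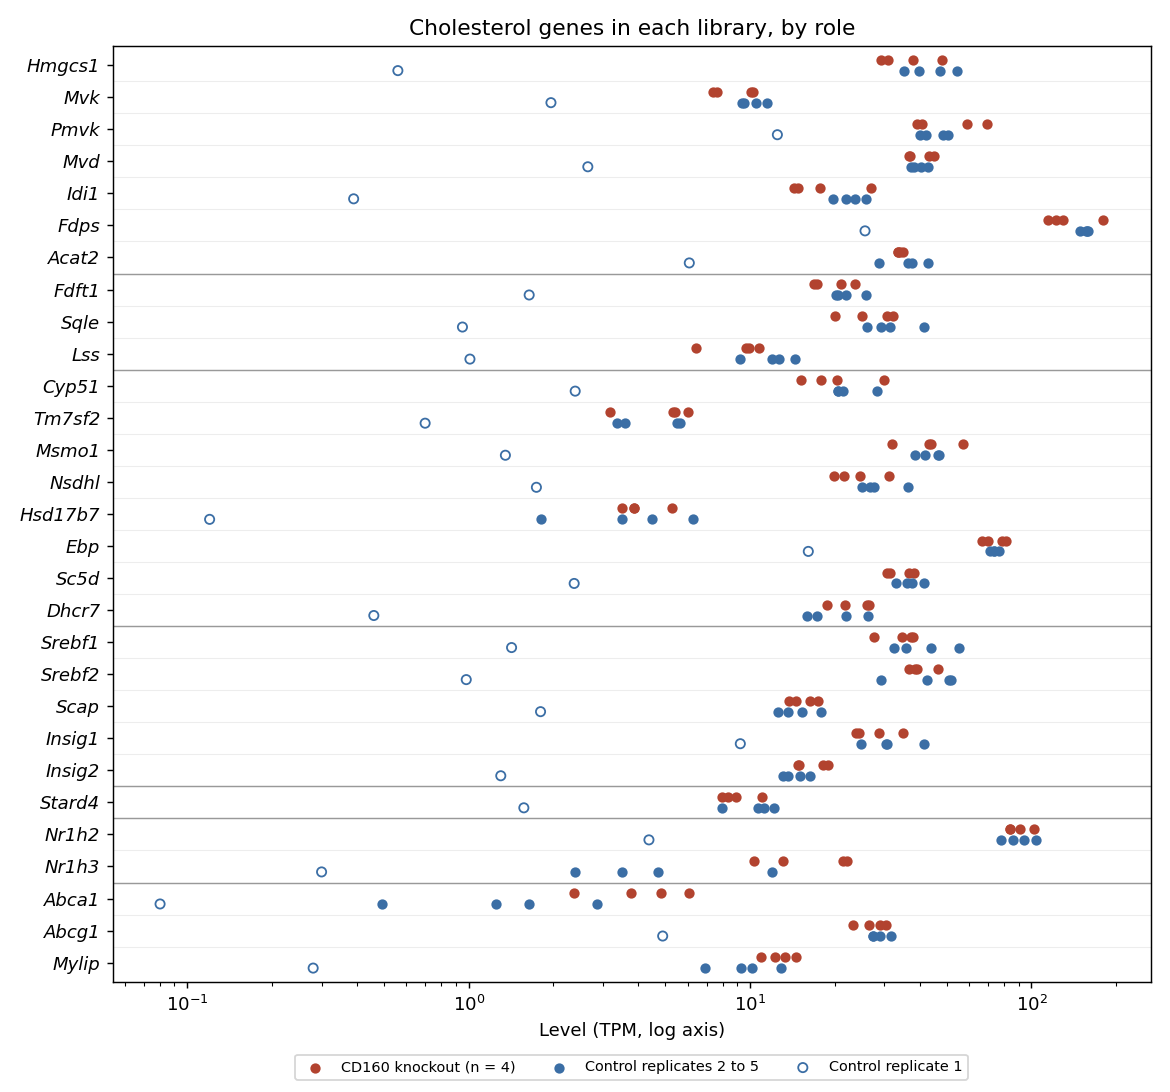
Level of each of the 29 genes in each library, in TPM on a log axis, grouped by role from synthesis (top) to efflux (bottom). Red points are the 4 knockout libraries, filled blue points control replicates 2 to 5, and the open blue circle control replicate 1. Control replicate 1 lies left of all other libraries in every row, and the red points lie to the right of most filled blue points for Nr1h3 and Abca1.

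Most of these genes were well expressed. Across the 8 libraries without control replicate 1, 21 of the 29 had a mean above the median of all tested genes (13.9 TPM). Fdps was the most abundant at 146 TPM, followed by Nr1h2 (90.1 TPM), Ebp (73.9 TPM) and Pmvk (48.7 TPM). At the low end stood Tm7sf2 (4.75 TPM), Hsd17b7 (4.07 TPM) and Abca1 (2.91 TPM). The coefficient of variation over these 8 libraries had a median of 19.1% among the members and 20.1% among all tested genes. It was lowest for Ebp (6.47%) and by far the highest for Nr1h3 (68.2%) and Abca1 (64.9%).

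No member differed between knockout and control libraries at an adjusted p under 0.05. In limma on log2(TPM + 1) over all 9 libraries, 0 of 29 members were called, where 0.0174% of the 11495 tested genes were (2 genes). Without control replicate 1, 0 of 29 were called again, where 0.0262% of 11457 tested genes were (3 genes). At an unadjusted p under 0.05, limma singled out the same 2 members in each fit, Nr1h3 and Abca1, both with a positive difference. The background for that count was 5.78% of all tested genes higher in knockout libraries with 9 libraries and 8.44% with 8 (6.39% and 12.8% in either direction), so 2 of 29 lies close to it. Groups that do not overlap in any library were found for 0 of 29 members with 9 libraries, where the background was 4.93%, and for 0 of 29 with 8, where it was 7.02%.

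With all 9 libraries the difference between group means of log2(TPM + 1), taken as knockout minus control here and below, was positive for 29 of 29 members, with a median of 0.52. It was also positive for 86.7% of all tested genes, whose median was 0.46, so most of the shift is shared with genes in general. Without control replicate 1 it was positive for 11 of 29 members, with a median of -0.082, where 47.5% of all tested genes were positive and their median was -0.014. The sign of 18 members therefore rests on control replicate 1. These are bulk libraries, in which fewer cells of a type and less RNA per cell cannot be told apart.

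**Figure D2:**
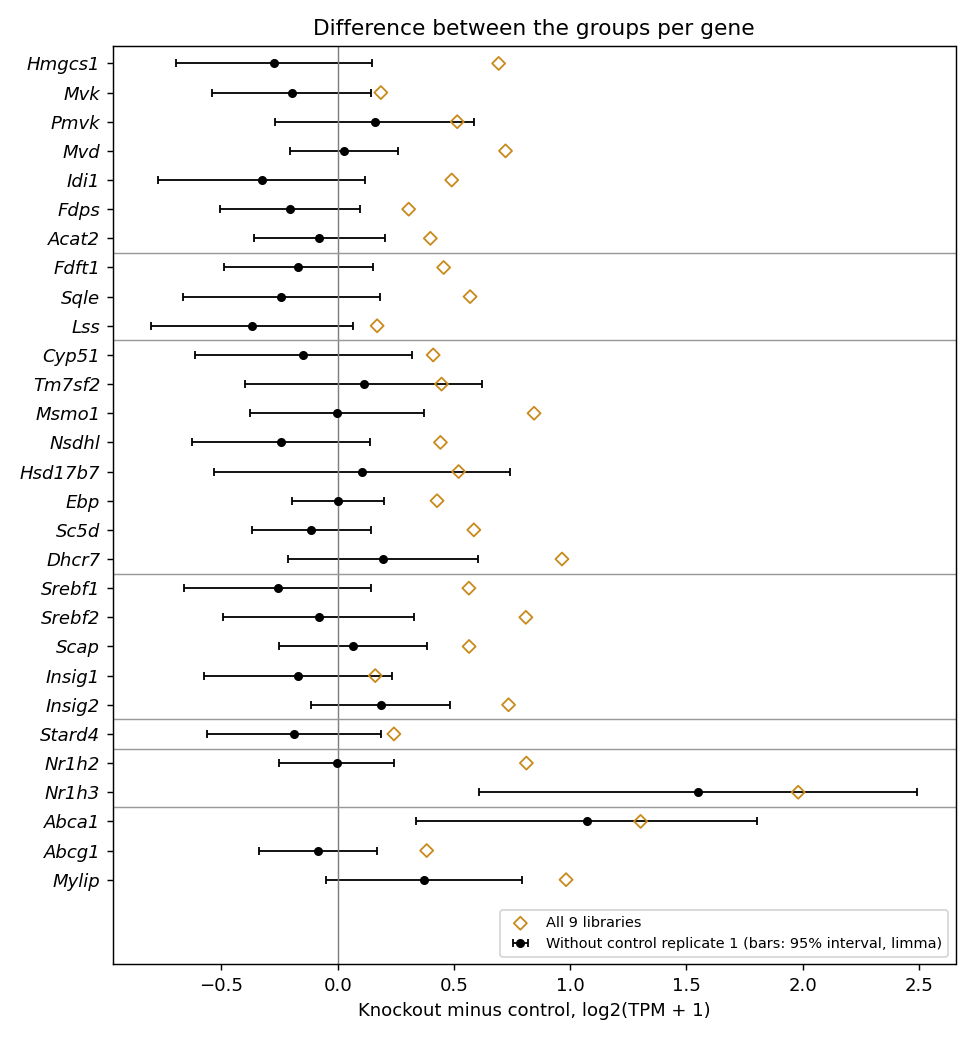
Difference between knockout and control libraries for each gene, on the log2(TPM + 1) scale, with knockout higher to the right. Black points are differences without control replicate 1 with their 95% intervals from limma, and open diamonds are differences with all 9 libraries. The interval spans 0 for 27 of the 29 genes, Nr1h3 and Abca1 being the exceptions.

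The first steps of synthesis, from acetyl-CoA to farnesyl pyrophosphate, were covered by 7 enzymes. None of the 7 was called, and without control replicate 1 their differences ran from -0.33 to 0.16 with a median of -0.20, 5 of them negative. With all 9 libraries they ran from 0.19 to 0.72 (lowest limma adjusted p 0.745). Hmgcs1 joins acetyl-CoA and acetoacetyl-CoA into the precursor of mevalonate. It had 30.9, 37.9, 29.1 and 47.9 TPM in knockout replicates 1 to 4, against 35.2, 54.2, 39.7 and 47.1 TPM in control replicates 2 to 5 and 0.56 TPM in control replicate 1. Knockout replicates 1 and 3 lay below all 4 of these controls while knockout replicate 4 lay above 3 of them, so the groups overlap. Its mean was 36.5 ± 8.55 TPM in the knockout group (SD, n = 4) and 44.05 ± 8.35 TPM in control replicates 2 to 5 (SD, n = 4), a difference of -0.27 (95% interval -0.70 to 0.15, limma adjusted p = 0.602).

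Idi1, the isomerase that supplies the allylic isoprenoid unit, had 14.4, 17.7, 14.8 and 26.8 TPM in knockout libraries, against 23.6, 25.8, 19.7 and 21.95 TPM in control replicates 2 to 5 and 0.39 TPM in control replicate 1. The values in knockout replicates 1 to 3 were all below the lowest of these 4 controls, and that in knockout replicate 4 was above the highest. The group means stood at a ratio of 0.810, and the difference was -0.33 (95% interval -0.77 to 0.12, limma adjusted p = 0.549). Fdps makes farnesyl pyrophosphate, the branch point to sterols, prenylated proteins and ubiquinone. Its levels were 129, 123, 114 and 180.0 TPM in the knockout group, against 156, 157, 159 and 148 TPM in control replicates 2 to 5 and 25.6 TPM in control replicate 1. The same arrangement was seen, with knockout replicates 1 to 3 below and knockout replicate 4 above all 4 controls. The difference in Fdps was -0.20 (95% interval -0.51 to 0.098, limma adjusted p = 0.586).

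Mvk and Pmvk add phosphates to mevalonate in turn. Mvk had 7.39, 7.63, 10.1 and 10.3 TPM in knockout libraries, against 9.55, 11.5, 10.5 and 9.34 TPM in control replicates 2 to 5 and 1.96 TPM in control replicate 1. Knockout replicates 1 and 2 were below all 4 of these controls and the other two were inside their range, with a difference of -0.20 (SE 0.15, limma adjusted p = 0.648). Pmvk had 58.8, 39.1, 40.9 and 69.5 TPM in knockout libraries, against 48.3, 50.6, 40.3 and 42.3 TPM in control replicates 2 to 5 and 12.5 TPM in control replicate 1. For Pmvk knockout replicates 1 and 4 were above and knockout replicate 2 was below all 4 controls, and the difference was 0.16 (SE 0.19, limma adjusted p = 0.801). The remaining enzymes here are Mvd, which removes a carboxyl group to give isopentenyl pyrophosphate, and Acat2, a thiolase that makes acetoacetyl-CoA. Mvd ranged from 36.7 to 45.2 TPM in knockout libraries and from 37.2 to 42.95 TPM in control replicates 2 to 5. Acat2 was nearly constant in knockout libraries (33.5 to 34.99 TPM) and wider in control replicates 2 to 5 (28.6 to 42.9 TPM).

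The enzymes that commit carbon to sterols are Fdft1 (squalene synthase), Sqle (squalene epoxidase, a rate-limiting oxygenation) and Lss (the cyclase that folds squalene epoxide into lanosterol). Without control replicate 1 all 3 differences were negative, from -0.37 to -0.17, and none was called, while with all 9 libraries they ran from 0.17 to 0.57. Fdft1 had 16.8, 20.99, 17.4 and 23.5 TPM in knockout libraries, against 20.2, 25.8, 22 and 20.5 TPM in control replicates 2 to 5 and 1.64 TPM in control replicate 1, a difference of -0.17 (SE 0.14, limma adjusted p = 0.681). Sqle had 20.1, 32.2, 24.9 and 30.7 TPM in knockout libraries, against 29.2, 41.6, 31.5 and 26.02 TPM in control replicates 2 to 5 and 0.95 TPM in control replicate 1. Control replicate 3 was the highest and knockout replicate 1 the lowest of these 8 libraries for both genes, and the difference in Sqle was -0.24 (95% interval -0.67 to 0.18, limma adjusted p = 0.649). Lss had 6.4, 10.8, 9.95 and 9.65 TPM in knockout libraries, against 9.23, 14.5, 12.7 and 12 TPM in control replicates 2 to 5 and 1.01 TPM in control replicate 1. Control replicates 3, 4 and 5 were above every knockout library, and control replicate 2 was below 3 of the 4 knockout libraries. The ratio of the means was 0.760 and the difference -0.37 (95% interval -0.80 to 0.067, limma adjusted p = 0.479), the most negative among the members.

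After lanosterol, 8 enzymes trim and rearrange the sterol: Cyp51 and Tm7sf2 (demethylase and reductase), Msmo1, Nsdhl and Hsd17b7 (removal of further methyl groups), Ebp (isomerase), Sc5d (desaturase) and Dhcr7 (the reductase of the last step). They divided evenly without control replicate 1, with 4 positive and 4 negative differences between -0.24 and 0.20, and none was called. With all 9 libraries they ran from 0.41 to 0.96. Nsdhl had 21.6, 24.6, 19.8 and 31.3 TPM in knockout libraries, against 26.7, 36.3, 25.1 and 27.5 TPM in control replicates 2 to 5 and 1.74 TPM in control replicate 1, a difference of -0.24 (SE 0.17, limma adjusted p = 0.608). Dhcr7 lay on the other side, with 21.7, 26.03, 18.8 and 26.4 TPM in knockout libraries, against 15.9, 26.1, 17.3 and 21.97 TPM in control replicates 2 to 5 and 0.46 TPM in control replicate 1. Control replicates 2 and 4 were below all knockout libraries for Dhcr7, control replicates 3 and 5 were not, and the difference was 0.20 (95% interval -0.21 to 0.60, limma adjusted p = 0.716). Ebp was the most even, at 66.5 to 81.3 TPM in knockout libraries and 71.3 to 76.8 TPM in control replicates 2 to 5, with a difference of 0.0020 whose 95% interval was -0.20 to 0.20. The ranges of Msmo1 were 31.9 to 57.2 TPM in knockout libraries and 38.6 to 46.8 TPM in control replicates 2 to 5, and those of Sc5d 30.6 to 38.3 and 33.04 to 41.6 TPM. Cyp51 spanned 15.2 to 29.9 TPM in knockout libraries and 20.5 to 28.2 TPM in control replicates 2 to 5. The weakly expressed Tm7sf2 had 3.18 to 6.02 TPM in knockout libraries and 3.37 to 5.65 TPM in control replicates 2 to 5, and Hsd17b7 had 3.5 to 5.29 TPM in knockout libraries and 1.8 to 6.26 TPM in control replicates 2 to 5.

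The highest and lowest values of the 20 SREBP targets fell in a few libraries. Among the 8 libraries without control replicate 1, 9 of the 20 were highest in knockout replicate 4, 9 in control replicate 3 and 2 in control replicate 4. The lowest value fell in knockout replicate 1 for 8 of them and in knockout replicate 3 for 7. For all tested genes, knockout replicate 4 was highest for 9.74% and control replicate 3 for 25.2%, while knockout replicate 1 was lowest for 18.5% and knockout replicate 3 for 12.4%. The knockout group thus holds both a library at the top of the range for these genes and the pair at its bottom.

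The sterol sensing machinery showed no called difference either (5 genes, without control replicate 1 from -0.26 to 0.18, lowest adjusted p from limma 0.603), and with all 9 libraries the differences ran from 0.16 to 0.81. Srebf1 and Srebf2 encode the SREBP proteins, the first linked more to fatty acid and the second more to sterol synthesis. Srebf1 had 34.6, 37.4, 27.5 and 37.8 TPM in knockout libraries, against 32.5, 55.03, 35.8 and 43.8 TPM in control replicates 2 to 5 and 1.42 TPM in control replicate 1. The widest spread was among the controls, with control replicate 3 the highest, and the difference was -0.26 (95% interval -0.66 to 0.14, limma adjusted p = 0.603). Srebf2 had 39.3, 46.5, 36.8 and 38.4 TPM in knockout libraries, against 29.1, 51.6, 50.99 and 42.5 TPM in control replicates 2 to 5 and 0.98 TPM in control replicate 1. All 4 knockout values for Srebf2 lay inside the range of these controls, and the difference was -0.082 (95% interval -0.49 to 0.33, limma adjusted p = 0.914). Scap had 13.8, 17.4, 16.4 and 14.6 TPM in knockout libraries, against 12.6, 17.9, 15.3 and 13.7 TPM in control replicates 2 to 5 and 1.8 TPM in control replicate 1, again inside the control range, with a difference of 0.068 (SE 0.14, limma adjusted p = 0.905).

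Insig1 and Insig2 encode the retention proteins, Insig1 being itself an SREBP target and thus part of the feedback loop. Insig1 had 23.7, 28.8, 24.5 and 35.03 TPM in knockout libraries, against 24.7, 41.4, 30.3 and 30.8 TPM in control replicates 2 to 5 and 9.23 TPM in control replicate 1. Its difference was -0.17 (SE 0.18, limma adjusted p = 0.771). Insig2 had 18.2, 18.9, 14.97 and 14.7 TPM in knockout libraries, against 13.1, 16.4, 13.6 and 15.1 TPM in control replicates 2 to 5 and 1.3 TPM in control replicate 1. Knockout replicates 1 and 2 were above every control for Insig2, knockout replicates 3 and 4 were not, and the difference was 0.18 (95% interval -0.11 to 0.48, limma adjusted p = 0.624). Within a library, Insig1 was at 130.1 to 237.7% of Insig2 in knockout libraries and at 187.8 to 252.6% in control replicates 2 to 5. Stard4, a soluble carrier that moves cholesterol between membranes and an SREBP target, had 8.35, 11.1, 7.92 and 8.91 TPM in knockout libraries, against 7.96, 11.2, 12.2 and 10.6 TPM in control replicates 2 to 5 and 1.57 TPM in control replicate 1. Its groups overlap, and the difference was -0.19 (SE 0.17, limma adjusted p = 0.703) without control replicate 1 and 0.24 with all 9 libraries.

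The LXR receptors gave unlike values. Nr1h2 encodes LXR-beta, found in most tissues, and Nr1h3 encodes LXR-alpha, known mainly from liver, fat and macrophages. Nr1h2 had 83.7, 102, 90.7 and 83.5 TPM in knockout libraries, against 78.1, 103, 94.2 and 85.9 TPM in control replicates 2 to 5 and 4.37 TPM in control replicate 1. The knockout values lay inside the range of those controls and the difference was -0.0043 (95% interval -0.25 to 0.24, limma adjusted p = 0.994) without control replicate 1 and 0.81 with all 9 libraries. Nr1h3 had 22.03, 10.3, 13.1 and 21.4 TPM in knockout libraries, against 11.95, 4.7, 2.38 and 3.5 TPM in control replicates 2 to 5 and 0.3 TPM in control replicate 1. Knockout replicates 1, 3 and 4 were above every control, and the overlap came from control replicate 2, which was above knockout replicate 2. The mean was 16.7 ± 5.90 TPM in the knockout group (SD, n = 4) and 5.63 ± 4.32 TPM in control replicates 2 to 5 (SD, n = 4), a ratio of 2.97. The difference was 1.55 (SE 0.42, 95% interval 0.61 to 2.49) without control replicate 1, with a limma adjusted p of 0.183, and 1.98 (SE 0.60) with all 9 libraries, with a limma adjusted p of 0.595. An exact two-sided permutation test gave p = 0.0571 with 8 libraries, where 0.0286 is the smallest it can give, and p = 0.0317 with 9, where 0.0159 is the smallest. The value with 9 includes control replicate 1, the lowest library for 86.9% of all tested genes. The share of all tested genes at such an exact p was not taken. Leaving out a further library together with control replicate 1 gave differences from 1.29 to 1.94 over 8 fits, with limma adjusted p from 0.05004 to 0.425. The lowest p, just above the threshold, came without control replicate 2. That control had the highest Nr1h3, so leaving it out widens the difference. These fits were made after the data had been seen. As a share of Nr1h2 in the same library, Nr1h3 was at 10.2 to 26.3% in knockout libraries, 2.53 to 15.3% in control replicates 2 to 5 and 6.86% in control replicate 1.

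Abca1 passes cholesterol and phospholipid to lipid-poor apolipoprotein A-I. It had 2.37, 3.77, 6.08 and 4.83 TPM in knockout libraries, against 1.64, 1.25, 2.85 and 0.49 TPM in control replicates 2 to 5 and 0.08 TPM in control replicate 1. Of the knockout libraries, replicates 2, 3 and 4 were above every control, and knockout replicate 1 was below control replicate 4. The mean was 4.26 ± 1.58 TPM in the knockout group (SD, n = 4) and 1.56 ± 0.985 TPM in control replicates 2 to 5 (SD, n = 4), a ratio of 2.74. Its difference was 1.07 (SE 0.32, 95% interval 0.34 to 1.81, limma adjusted p = 0.216) without control replicate 1 and 1.30 (SE 0.39, limma adjusted p = 0.595) with all 9 libraries. At these low levels the log2(TPM + 1) scale understates a change. The exact permutation p for Abca1 was 0.0571 with 8 libraries and 0.0317 with 9, as for Nr1h3 and with the same limits.

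Abcg1, the exporter to mature high-density lipoprotein and an LXR target in T cells as well, had 26.4, 23.2, 30.3 and 28.9 TPM in knockout libraries, against 27.4, 27.4, 28.96 and 31.6 TPM in control replicates 2 to 5 and 4.89 TPM in control replicate 1. The groups overlap, knockout replicates 1 and 2 being below all 4 controls, and the difference was -0.085 (95% interval -0.34 to 0.17, limma adjusted p = 0.828) without control replicate 1 and 0.38 with all 9 libraries. Abca1 was at 8.97 to 20.1% of the level of Abcg1 in knockout libraries, at 1.55 to 9.84% in control replicates 2 to 5 and at 1.64% in control replicate 1. Mylip had 12.2, 13.4, 14.6 and 10.9 TPM in knockout libraries, against 6.9, 10.2, 12.9 and 9.26 TPM in control replicates 2 to 5 and 0.28 TPM in control replicate 1. Knockout replicates 2 and 3 were above every control for Mylip, and control replicate 4 lay above knockout replicates 1 and 4. The difference in Mylip was 0.37 (95% interval -0.048 to 0.79, limma adjusted p = 0.454) without control replicate 1 and 0.98 with all 9 libraries. Its exact permutation p was 0.0857 with 8 libraries and 0.0476 with 9, with the limits given for Nr1h3. The 3 LXR targets thus had differences of 1.07, 0.37 and -0.085, without control replicate 1, the exporters having opposite signs there and the same sign with all 9 libraries.

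Macrophage markers had positive differences too. All 12 had a positive difference in both fits, with a median of 1.31 without control replicate 1, and 9 of 12 had an unadjusted limma p under 0.05 there (lowest adjusted p 0.183), where 8.44% of all tested genes were higher in knockout libraries at that level. As a mean of log2(TPM + 1), the macrophage list stood at 7.56, 8.29, 9.06 and 9.09 in knockout replicates 1 to 4, against 8.16, 6.55, 7.58 and 6.39 in control replicates 2 to 5 and 4.66 in control replicate 1. Abca1 was highest in the 2 libraries with the most macrophage transcripts, knockout replicates 3 and 4. Among the controls it was highest in control replicate 4 (2.85 TPM, macrophage mean 7.58). Control replicate 2, with a higher macrophage mean of 8.16, had 1.64 TPM of Abca1. Nr1h3 was highest in knockout replicate 1, which had the lowest macrophage mean of the knockout libraries (knockout replicate 2 had the lowest sum), and its highest control value fell in control replicate 2, the control with the most. A limma fit of the 8 libraries with the macrophage mean as covariate gave a difference of 1.22 for Nr1h3 (SE 0.58, limma adjusted p = 0.494), 0.37 for Abca1 (SE 0.31, limma adjusted p = 0.668) and 0.46 for Mylip (SE 0.26, limma adjusted p = 0.536). The 95% intervals with the covariate were -0.10 to 2.55 for Nr1h3 and -0.34 to 1.07 for Abca1, and both span 0. Which cells these transcripts came from was not tested. Dendritic cell markers summed to 48.3 to 70.6 TPM in knockout libraries and 24.3 to 54.4 TPM in control replicates 2 to 5, with 2 genes at 0 in control replicate 3 and 1 in control replicate 5. Stromal markers summed to 46.6 to 368.5 TPM in knockout libraries and 57.0 to 134.0 TPM in control replicates 2 to 5, epithelial markers to 48.1 to 66.8 and 30.1 to 71.5 TPM, and neutrophil markers to 24.2 to 150.1 and 20.3 to 57.9 TPM, with 325.4 TPM of the last in control replicate 1 and up to 3 of 5 genes at 0 in a library. B and plasma cell markers, with 2 or 3 of 5 genes at 0 in every library and most of the sum from Cd79b, stood at 2.45 to 12.9 TPM in knockout libraries and 1.63 to 8.07 TPM in control replicates 2 to 5. Cd79b, a subunit of the B cell receptor, had 2.29, 9.89, 12.65 and 11.34 TPM in knockout libraries, against 8.06, 4.47, 2.13 and 1.51 TPM in control replicates 2 to 5. T cell markers had 7 negative and 1 positive difference without control replicate 1, with a median of -0.23 (lowest limma adjusted p 0.117). An unadjusted limma p under 0.05 was found for 3 of 8, all negative. At that level 505 of 11457 tested genes were lower in knockout libraries. For 1 of 8 every knockout library was below every control, as for 345 of 11457 tested genes. Over all 9 libraries T cell markers had 5 positive and 3 negative differences, a median of 0.31 and 0 of 8 under that p (6.39% of all tested genes). The part of these markers in the results was not tested.

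**Figure D3:**
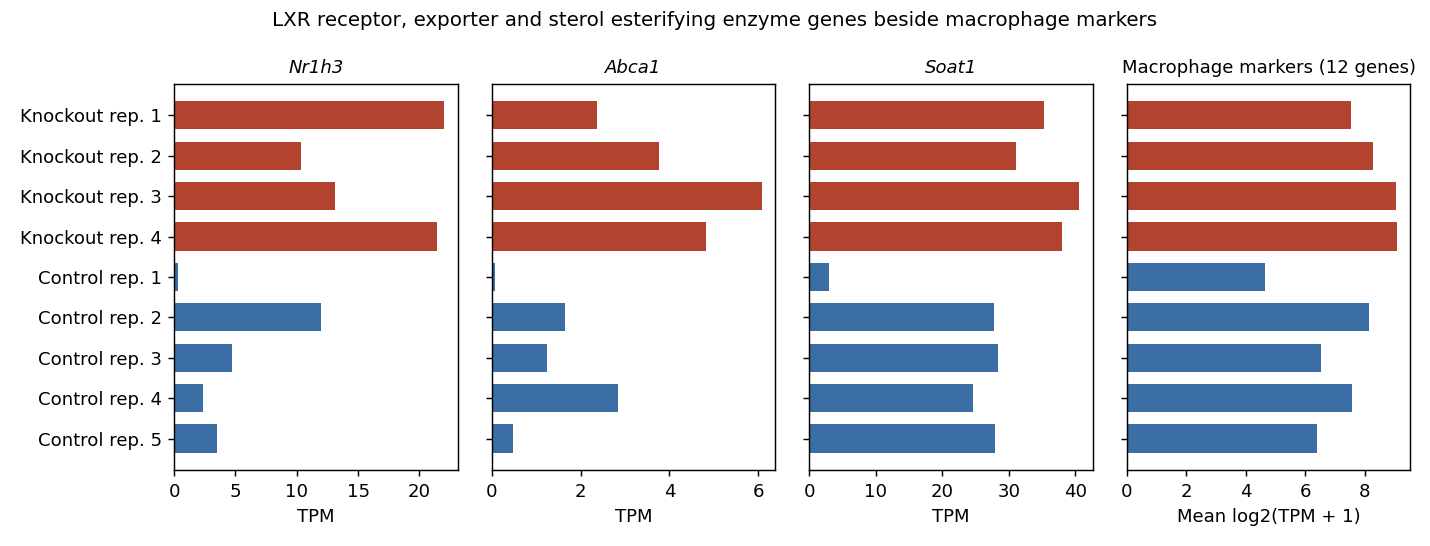
Level in each library of Nr1h3, Abca1 and Soat1 in TPM, beside the mean log2(TPM + 1) of 12 macrophage markers, with the knockout libraries in red above the control libraries in blue. Each bar is 1 library. Nr1h3 and Abca1 each overlap between the groups through 1 control library, and the macrophage mean overlaps through control replicates 2 and 4.

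Averaged per arm, the ranges of the groups overlapped for the SREBP targets and for the LXR targets. The mean log2(TPM + 1) of the 20 SREBP targets was 4.42, 4.63, 4.47 and 4.87 in knockout libraries, against 4.54, 4.91, 4.67 and 4.70 in control replicates 2 to 5 and 1.79 in control replicate 1. The group means were 4.60 ± 0.20 in knockout libraries (SD, n = 4) and 4.71 ± 0.16 in control replicates 2 to 5 (SD, n = 4), a difference of -0.11 that is smaller than either SD. With control replicate 1 the control mean was 4.12 ± 1.31 (SD, n = 5) and the difference 0.48. For the 3 LXR targets the mean was 3.42, 3.56, 3.92 and 3.67 in knockout libraries, against 3.07, 3.16, 3.55 and 2.99 in control replicates 2 to 5 and 1.01 in control replicate 1. Control replicate 4 lay above knockout replicate 1 and the other control values below all knockout values. The group means were 3.64 ± 0.21 in knockout libraries (SD, n = 4) and 3.19 ± 0.25 in control replicates 2 to 5 (SD, n = 4), a difference of 0.45 that is larger than either SD.

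The SREBP mean minus the LXR mean within each library removes only a shift that is equal in both means. This value was 1.01, 1.07, 0.55 and 1.19 in knockout libraries, against 1.47, 1.75, 1.13 and 1.71 in control replicates 2 to 5. In control replicate 1 it was 0.78, still below the other controls. Of control replicates 2 to 5, only control replicate 4 fell below a knockout library, knockout replicate 4. The difference between the groups was -0.56 without control replicate 1 and -0.41 with it, against SDs of 0.28 in knockout libraries and 0.29 in control replicates 2 to 5. No test is given for these means because the genes were chosen with earlier results known. Of the 3 LXR targets Abca1 had the largest difference, and with the macrophage covariate and all 9 libraries the difference in the LXR mean was -0.15, while with the covariate and without control replicate 1 it was 0.24.

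**Figure D4:**
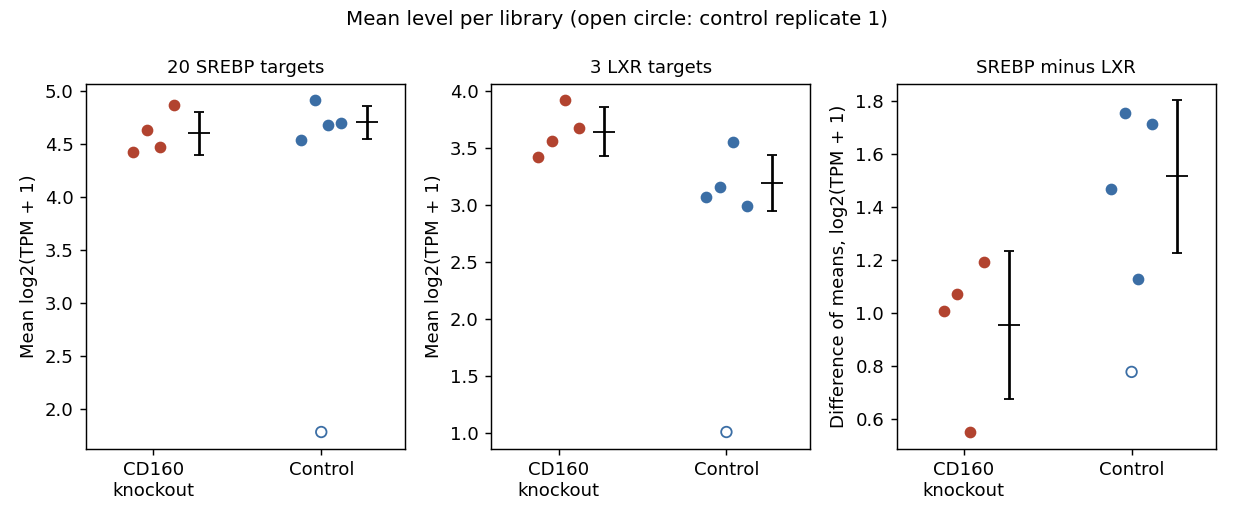
Mean log2(TPM + 1) per library of the 20 SREBP targets (left), of the 3 LXR targets (middle) and their difference (right), for knockout libraries in red and control libraries in blue. Black bars are the mean and SD of 4 libraries per group, and the open circle is control replicate 1, which is not in the bars. The axes do not start at 0.

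Other genes of sterol handling stand outside the 29: final and parallel synthesis steps, receptors, lysosomal export, storage and the proteases and ligases around SREBP. Of 15 such genes 14 were tested, and without control replicate 1 none was called, with 7 positive and 7 negative differences around a median of 0.0011, and with all 9 libraries none was called either (median 0.57, lowest limma adjusted p 0.745). The 4 with the smallest p were all positive, and their unadjusted limma p was under 0.05, where 12.8% of all tested genes had such a p. Soat1, which esterifies cholesterol for storage, had 35.2, 31.1, 40.6 and 37.97 TPM in knockout libraries, against 27.8, 28.3, 24.6 and 27.95 TPM in control replicates 2 to 5 and 2.9 TPM in control replicate 1. Every knockout library was above every control, as for 4.01% of all tested genes, and the difference was 0.40 (SE 0.11, limma adjusted p = 0.185). Npc2, which hands cholesterol out of the lysosome, had 245, 219.7, 283 and 288 TPM in knockout libraries, against 221, 159.6, 183 and 149.7 TPM in control replicates 2 to 5 and 28.4 TPM in control replicate 1, with a difference of 0.54 (SE 0.14, limma adjusted p = 0.171). Only control replicate 2 reached into the knockout range, above knockout replicate 2. Lipa, the lysosomal lipase that frees cholesterol from its esters, and Scarb1, a receptor for high-density lipoprotein, differed by 0.75 (SE 0.22, limma adjusted p = 0.208) and 0.62 (SE 0.17, limma adjusted p = 0.187). With the macrophage covariate these became 0.36 (SE 0.15) for Soat1, 0.22 (SE 0.12) for Npc2, 0.20 (SE 0.16) for Lipa and 0.27 (SE 0.18) for Scarb1.

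Of 7 other genes linked to LXR, all were tested, none was called and 6 were positive without control replicate 1, with a median of 0.61 against -0.014 for all genes and 3 with an unadjusted limma p under 0.05, all positive, where 8.44% of all tested genes were. With all 9 libraries all 7 were positive, with a median of 0.88, and none was called (lowest limma adjusted p 0.714). Rxra, the partner of LXR on DNA, differed by 0.63 (SE 0.23, limma adjusted p = 0.292). Pltp, a phospholipid transfer protein, and Cyp27a1, which makes an oxysterol ligand of LXR, differed by 1.08 (SE 0.41, limma adjusted p = 0.309) and 1.18 (SE 0.50, limma adjusted p = 0.366). Their differences with the macrophage covariate were 0.18 (SE 0.24), -0.056 (SE 0.15) and -0.22 (SE 0.18), and the median of the list was then -0.041.

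Values of a few members are less certain because reads cannot always be told apart. Stretches of 38 bases, the length of the reads, were in part shared with transcripts of other genes. The shared part was 41.8% in Acat2 (with Acat3 and Tcp1) and 29.6% in Fdft1 (with Ctsb and Gm6781). It was 27.4% in Fdps and 26.4% in Idi1 (with gene models and pseudogenes). Exons of Ctsb, on the other strand, covered 18.3% of the exon bases of Fdft1. Ctsb is abundant in macrophages, whose markers differed as given above, and its part in the values of Fdft1 was not tested. Pmvk and Fdps lie on chromosome 3, 7.33 and 7.70 Mb from Cd160.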

How the data were processed

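Bulk RNA-seq of sorted colonic CD4+ T cells was available for 4 CD160 knockout and 5 control libraries. Per the labels' protocols, full-length libraries of the modified SMART-Seq2 kind were made from polyadenylated RNA and sequenced as read pairs of 38 bases. The deposited values are TPM. Tools listed in the submitters' processing notes are RSEM 1.2.31, Bowtie2 2.2.9 and Trimmomatic 0.32, with the build GRCm38, and further settings are not given in the sources used here. TPM keeps no depth, so the depth and counting error per library are unknown, and abundant transcripts of other cells lower all other values of a library.

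Members were matched by symbol. Members, lists, named genes and tests were chosen with earlier results of these data known. Differences are knockout minus control in limma 3.58.1 (R 4.3.3, eBayes with trend) of log2(TPM + 1). Genes entered if 4 or more libraries reached 1 TPM, with Benjamini-Hochberg adjustment over all tested genes and a threshold of 0.05. The fit without control replicate 1 tested 11457 genes. Values per library are named for 21 members (15 chosen by role and the 6 others with the smallest p), ranges for the rest, and up to 4 genes of each related list by smallest p. Exact permutation tests were two-sided. Intervals are 95%. The fit was tested on simulated data.

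Alternatives were pseudocounts of 0.1 and 5, no filter or 5 TPM, median-of-ratios and quantile scaling, leaving out each library, exact tests gene by gene, a covariate of macrophage markers, and a block for the replicate number. Adding Srebf1 to the LXR targets or Srebf2 to the SREBP targets was planned for all 9 libraries. The same additions without control replicate 1 were made after the data had been seen. So were the alternatives that leave out further libraries together with control replicate 1. Gene models came from GENCODE vM21 (GRCm38) and promoters from RefSeq (GRCm38.p6). Figures used matplotlib 3.10.9 in Python 3.11.15.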

Additional observations from a re-analysis of the deposited data

Results flagged for a closer look

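Control replicate 1 stood apart from control replicates 2 to 5 for 24 of the 29 members by Dixon's gap test at 95%. Of the 64 groups of values tested, 26 singled out a library, and each time it was this one, whereas chance singles out about 1 in 20 groups. The genes share this library, so these are not separate findings. Its TPM values were Hmgcs1 0.56, Mvk 1.96, Pmvk 12.5, Mvd 2.65, Idi1 0.39, Fdps 25.6, Acat2 6.08, Fdft1 1.64, Sqle 0.95, Lss 1.01, Cyp51 2.39, Msmo1 1.35, Nsdhl 1.74, Ebp 16.1, Sc5d 2.37, Dhcr7 0.46, Srebf1 1.42, Srebf2 0.98, Scap 1.8, Insig2 1.3, Stard4 1.57, Nr1h2 4.37, Abcg1 4.89 and Mylip 0.28. Its mean log2(TPM + 1) was 1.79 over the SREBP targets and 1.01 over the LXR targets. The 5 members without such a gap were Tm7sf2, Hsd17b7, Insig1, Nr1h3 and Abca1, for which control replicate 1 was also the lowest library. No knockout library was singled out for any member. Across the 29 genes, the share of the control level kept in control replicate 1 had a Spearman correlation of -0.27 with transcript length (1194 to 10262 bases), given as a description.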

How the results depend on the processing

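No member and no gene of the related lists passed the adjusted threshold under any alternative that was run. The count of all genes called, 2 with all 9 libraries, was 1 with a pseudocount of 5 or with the macrophage covariate, 0 without a filter, with a filter of 5 TPM or with the exact permutation test, and 4 without control replicate 1 under median-of-ratios scaling. Over the fits that leave out 1 library, alone or with control replicate 1, it ran from 0 to 15 (15 without control replicates 1 and 2, 3 without control replicate 1 alone, and 0 without any other single library), and members whose groups do not overlap ran from 0 to 4 (4 without control replicate 1 and knockout replicate 4). That last count was 1 without control replicate 1 under median-of-ratios scaling. The share of all tested genes without overlap was not taken for the alternatives where this count was above 0. It was 7.02% without control replicate 1 and no scaling, and smaller groups fail to overlap more often. These counts are therefore not a result about the members. With the macrophage covariate and all 9 libraries, the mean difference was -0.73 for the SREBP targets and -0.15 for the LXR targets. In that fit the covariate also follows control replicate 1, which had the lowest macrophage mean, so these values are not an adjustment for macrophage content alone. The SREBP minus LXR difference stayed negative under every alternative that was run, from -0.70 to -0.17. These alternatives reuse the same libraries and nearly the same genes, chosen with earlier results known, so the constant sign is not separate evidence.

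Deviations of same-numbered libraries did not correlate positively over the 4 pairs of all 9 libraries (-0.137 to -0.0166). Without control replicate 1 the correlations were -0.223, -0.158 and 0.00105 for pairs 2, 3 and 4. The numbers were therefore not taken as pairs. With the replicate number as a block 0 genes were called, with 9 libraries and without control replicate 1. With 9 libraries the block turned the sign of 0 of the 38 genes examined (the 29 members and 9 named others). Leaving out control replicate 1 and adding the block, 2 changes together, gave negative values for Hmgcs1 -0.17, Mvk -0.16, Mvd -0.035, Idi1 -0.24, Fdps -0.21, Acat2 -0.053, Fdft1 -0.13, Sqle -0.21, Lss -0.22, Cyp51 -0.11, Nsdhl -0.22, Sc5d -0.087, Srebf1 -0.23, Srebf2 -0.073, Insig1 -0.11, Stard4 -0.14 and Abcg1 -0.029, and all of these but Mvd were already negative with that library left out and no block.

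Many of the 38 genes had a sign that turned with the scaling, the covariate or the libraries used. Median-of-ratios scaling of all 9 libraries reversed 12 genes, at Mvk -0.32, Pmvk -0.078, Fdps -0.30, Acat2 -0.17, Fdft1 -0.040, Lss -0.27, Cyp51 -0.11, Nsdhl -0.059, Ebp -0.17, Insig1 -0.42, Stard4 -0.24 and Abcg1 -0.18. Quantile scaling reversed 11, at Mvk -0.33, Fdps -0.11, Acat2 -0.15, Fdft1 -0.068, Lss -0.30, Cyp51 -0.12, Nsdhl -0.089, Ebp -0.028, Insig1 -0.37, Stard4 -0.27 and Abcg1 -0.16. Set against the fit of all 9 libraries, median-of-ratios scaling without control replicate 1 gave negative values for Hmgcs1 -0.27, Mvk -0.19, Idi1 -0.32, Fdps -0.20, Acat2 -0.075, Fdft1 -0.17, Sqle -0.24, Lss -0.36, Cyp51 -0.14, Nsdhl -0.24, Sc5d -0.11, Srebf1 -0.26, Srebf2 -0.078, Insig1 -0.17, Stard4 -0.18, Nr1h2 -0.0011 and Abcg1 -0.081. The macrophage covariate with all 9 libraries reversed 33 genes, at Hmgcs1 -1.26, Mvk -0.70, Pmvk -0.22, Mvd -0.76, Idi1 -1.30, Fdps -0.82, Acat2 -0.50, Fdft1 -0.86, Sqle -1.18, Lss -0.96, Cyp51 -0.75, Tm7sf2 -0.23, Msmo1 -1.13, Nsdhl -0.97, Hsd17b7 -0.14, Ebp -0.47, Sc5d -0.87, Dhcr7 -0.49, Srebf1 -0.98, Srebf2 -0.91, Scap -0.44, Insig1 -0.47, Insig2 -0.28, Stard4 -0.57, Nr1h2 -0.85, Abcg1 -0.62, Mylip -0.24, Soat1 -0.25, Scarb1 -0.15, Npc2 -0.21, Lipa -0.39, Pltp -0.26 and Cyp27a1 -0.35. The same covariate without control replicate 1 gave negative values for Hmgcs1 -0.14, Mvk -0.34, Mvd -0.023, Idi1 -0.46, Fdps -0.30, Fdft1 -0.19, Sqle -0.33, Lss -0.37, Cyp51 -0.13, Msmo1 -0.34, Nsdhl -0.20, Ebp -0.0070, Sc5d -0.10, Insig1 -0.069, Stard4 -0.042, Abcg1 -0.12, Pltp -0.056 and Cyp27a1 -0.22. For genes whose sign turned when libraries were left out, the lowest and highest differences were Hmgcs1 -0.41 to 1.01, Mvk -0.27 to 0.32, Mvd -0.026 to 0.92, Idi1 -0.51 to 0.74, Fdps -0.34 to 0.44, Acat2 -0.18 to 0.58, Fdft1 -0.26 to 0.67, Sqle -0.33 to 0.87, Lss -0.48 to 0.37, Cyp51 -0.33 to 0.63, Msmo1 -0.13 to 1.08, Nsdhl -0.37 to 0.70, Hsd17b7 -0.15 to 0.78, Ebp -0.044 to 0.55, Sc5d -0.17 to 0.80, Srebf1 -0.37 to 0.87, Srebf2 -0.26 to 1.10, Scap -0.0035 to 0.76, Insig1 -0.28 to 0.34, Stard4 -0.30 to 0.40, Nr1h2 -0.071 to 1.07 and Abcg1 -0.14 to 0.53. With all 9 libraries the macrophage covariate also follows control replicate 1, so the 33 reversals cannot be read as an adjustment for macrophage content alone. The cause of these reversals was not tested beyond the libraries and settings named. Depth per library is unknown from TPM, so counting error could not be separated from other spread.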

Other observations

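The fatty acid branch of SREBP control was read beside the sterol branch. Of 14 such genes 11 were tested, none was called, and without control replicate 1 the differences were 7 positive and 4 negative with a median of 0.051, against -0.16 for the 20 sterol-side targets. In that fit 2 of them had an unadjusted limma p under 0.05, both positive, where 8.44% of all tested genes were higher in knockout libraries at that level. Over all 9 libraries the 11 fatty acid genes and the 20 sterol-side targets were all positive, with medians of 0.56 and 0.45. Lpin1, a phosphatidate phosphatase, had 10.98, 13, 10.4 and 10.9 TPM in knockout libraries, against 5.31, 6.48, 7.35 and 9.42 TPM in control replicates 2 to 5 and 0.46 TPM in control replicate 1. Every knockout value was above every control value, as for 4.01% of all tested genes without control replicate 1. The difference was 0.62 (SE 0.17, limma adjusted p = 0.189). Fads2, a fatty acid desaturase, had 1.74, 2.55, 3.24 and 3.46 TPM in knockout libraries, against 0.91, 1.86, 0.77 and 2.48 TPM in control replicates 2 to 5 and 0 TPM in control replicate 1, with overlapping groups and a difference of 0.61 (SE 0.26, limma adjusted p = 0.372). With the macrophage covariate the differences were 0.85 (SE 0.22) for Lpin1 and 0.75 (SE 0.37) for Fads2.

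Genes that use the isoprenoids made by Fdps, for prenylation, dolichol and ubiquinone, numbered 11 and were all tested. Without control replicate 1 none was called, 0 had an unadjusted limma p under 0.05 (12.8% of all tested genes did), and the differences were 4 positive and 7 negative, from -0.27 to 0.15. Over all 9 libraries all 11 were positive, with a median of 0.41, none was called and 0 had an unadjusted limma p under 0.05 (6.39% of all tested genes). Proliferation genes, which are known to rise with sterol synthesis in dividing T cells, numbered 12. None was called without control replicate 1, 0 had an unadjusted limma p under 0.05, against the same 12.8%, and 11 of 12 differences were negative, with a median of -0.12. In the fit of all 9 libraries 10 were positive and 2 negative, with a median of 0.39, none was called and 0 had an unadjusted limma p under 0.05, against 6.39%. Adding the macrophage covariate to the 8-library fit made all 12 positive, with a median of 0.29 against 0.082 for all tested genes. None was called there. In that fit 4 of 12 had an unadjusted limma p under 0.05, where 789 of 11457 tested genes were higher in knockout libraries at that level. The sign of the proliferation genes thus depends on that setting and on control replicate 1.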
